A study of Mus musculus with 12 samples.

Results

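Satellite cells, the stem cells of skeletal muscle, were compared by RNA-seq between old and young wild-type mice after muscle injury. The comparison took the libraries titled as old or young wild type, 3 from mice of 22 to 28 months and 3 from mice of 3 to 4 months, which are 6 of the 12 libraries of the series. The study asked how age and the gene Hoxa9 shape the transcripts of these cells. All mice carry the strain label C57BL/6, the genotype of the 6 libraries is wildtype, and the 6 other libraries are Hoxa9 knock-outs, 3 at each age. Hindlimb muscles of every group, old and young alike, were injured by injecting 1.2% barium chloride, 50 µl in all, at about 20 places, and cells were taken 3 days later. No uninjured muscle enters the comparison. Sex, the number of animals behind a library and the way the cells were purified are not given in the sources used here. The p-values therefore measure the spread between these samples, which may be technical.

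In resting muscle, satellite cells sit between the fibre and its basement membrane, a sheet of type IV collagen, laminins, nidogens and proteoglycans. Barium chloride kills fibres, after which satellite cells leave rest, divide, and either differentiate and fuse into new fibres or return to rest. Notch signalling and contact with the matrix hold them at rest, while growth factors of the FGF and IGF families and cytokines from immune cells act on their division and differentiation. Regeneration from these cells is known to be poorer in old mice.

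Reads counted in genes numbered 14938635, 9039861 and 13601348 in the old libraries and 20337015, 6125999 and 12151724 in the young libraries. Gene ranks were close between libraries, with Spearman correlations of 0.984 to 0.990 among old, 0.983 to 0.990 among young and 0.973 to 0.985 between the ages. Old library 2 stood apart. Outside genes lay 57.1% of its uniquely aligned reads, against 39.2% and 40.8% in the other old libraries and 35.2% to 38.3% in the young libraries. In it, 729 genes lay more than 1 log2 unit above the mean of the other libraries of its age, against 43 to 477 genes in the other 5 libraries, while 40 genes lay as far below, against 242 to 552. Young library 2, the shallowest, had 477 genes above and 301 below, and the largest median deviation, 0.255 log2 units against 0.205 in old library 2. Each of the 8 satellite cell markers checked was abundant in every library. The lowest level among them was that of the myogenic factor Myod1, 123 CPM in young library 1, where CPM is counts per megaread of gene reads, with trimmed-mean scaling. Itga7, an integrin subunit known from satellite cells, stood at 1680 to 1709 CPM in old libraries and 1548 to 1629 CPM in young libraries. Reads of Xist, the RNA of the inactive X chromosome, numbered 3105 to 22473 in the 6 libraries and those of the Y-linked Ddx3y at most 39.

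Hoxa9, a homeobox factor that patterns the body axis, had 14.7, 15.7 and 22.5 CPM in the old libraries and 7.96, 11.4 and 11.5 CPM in the young libraries. Every old library lay above every young library. The log2 fold change, old minus young, was 0.79 ± 0.23 (SE), and its adjusted p of 0.123 missed the threshold of 0.05. A fit of the 6 wild-type libraries alone gave 0.80 and an adjusted p of 0.0421, which no fit with any of these 6 libraries left out kept. In the knock-out libraries the gene stood at 4.55 to 7.21 CPM, so reads remained over it there, and which part of the gene was deleted is not given.

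More genes passed the threshold as lower than as higher in old cells. Of 13540 genes with enough reads to test, 144 passed the threshold of 0.05 on p-values adjusted by Benjamini-Hochberg (quasi-likelihood test of edgeR), a share of 1.06%. Of these, 35 were higher in old cells (0.258% of tested genes) and 109 were lower (0.805%). Over all tested genes, the called ones included, the directions were nearly even. At an unadjusted p under 0.05, 916 genes were higher and 1002 lower. By sign alone, 6891 genes were positive and 6649 negative. In all 144 genes the old and young libraries did not overlap, a pattern that 1768 tested genes showed with old above young (13.1%) and 1865 with old below young (13.8%). The median log2 fold change was 1.30 among the higher genes, -1.02 among the lower genes and 0.01 over all tested genes, whose quartiles were -0.20 and 0.23. The genes that rose were mostly sparse, with medians of 15.1 CPM in old and 6.81 CPM in young cells. The genes that fell were more abundant, with medians of 35.9 CPM in old and 78.1 CPM in young cells.

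**Figure D1:**
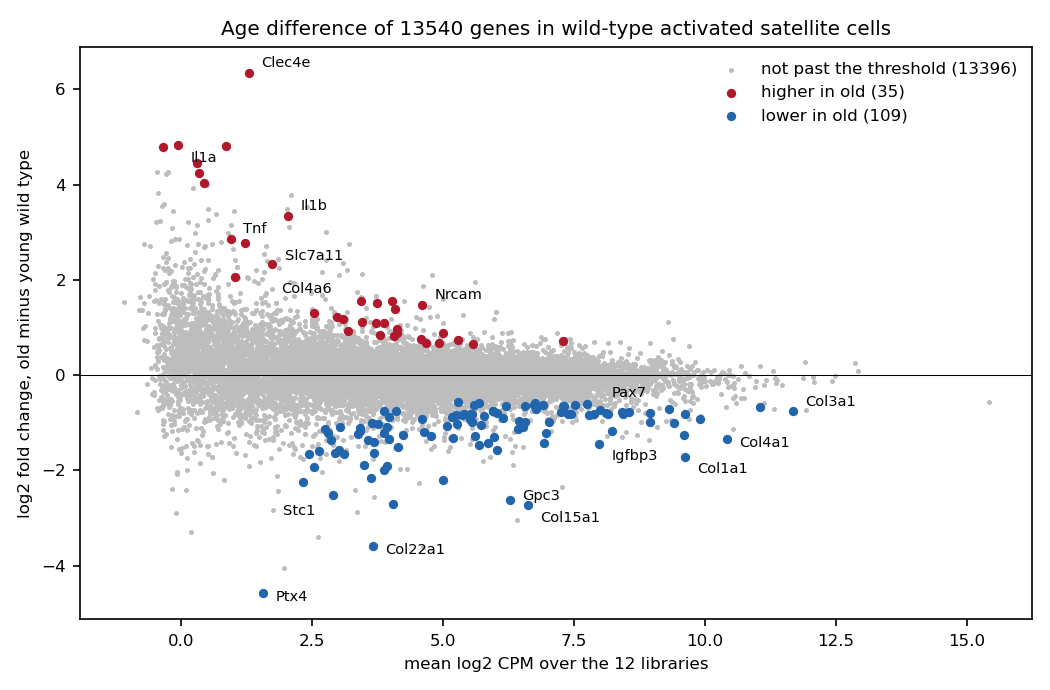
Each point is a tested gene, placed by its mean log2 CPM over the 12 libraries (x axis) and its fitted log2 fold change, old minus young wild type (y axis). Red points are the 35 genes that passed the threshold as higher in old cells and blue points the 109 that passed as lower; the largest rises sit at the left among sparse genes, and the falls reach to the abundant collagens at the right.

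How many genes passed depended on which libraries set the spread. The test above estimates the spread between replicates from all 12 libraries, in which the common coefficient of variation was 22.2%. It was 16.4% among the 6 wild-type libraries and 26.3% among the 6 knock-out libraries. A fit of the 6 wild-type libraries alone called 913 of 13486 genes (6.77%), 332 higher (2.46%) and 581 lower (4.31%), and all 144 genes were among them. In the fit of 12 libraries, leaving out old library 1, 2 or 3 left 22, 23 or 6 genes, and leaving out young library 1, 2 or 3 left 22, 73 or 29. Leaving out young knock-out library 1 or 3 gave 236 or 458. In the fit of the 6, leaving out old library 1, 2 or 3 left 463, 604 or 462 genes and leaving out young library 1, 2 or 3 left 794, 846 or 571, with 330 genes called in all of these fits, 104 higher and 226 lower. Each of the 144 genes that was tested kept its sign in the full fit of the 6 and in the fits of 12 with a library left out. That was nearly fixed in advance, since the genes were chosen on this difference in the same libraries. Signs were not tallied for the fits of the 6 with a library left out. Scaling by library size alone, without trimmed-mean factors, called 30 genes higher and 53 lower.

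The 6 genes that passed in the fit of 12 libraries with any wild-type library left out were all lower in old cells: Gpc3, Col15a1, Col6a2, Stc1, Fibin and Tril. A further 7 passed in 5 of those 6 fits, namely Il1b and Nrcam, which were higher, and Igfbp3, Egr2, Ndn, Col4a2 and C530008M17Rik, which were lower. Each other gene said below to rise or fall lost the threshold in at least 2 of those fits. All of them passed in the fit of the 6 wild-type libraries. Most calls were lost more often. Of the genes called with all 12 libraries, 73 passed in none of the 6 fits with a wild-type library left out, and 38 in 1. Among the 73 are Pax7, Fgfr4, Col1a1, Col3a1, Sparc, Eln, Clec4e, Il1a and Il10.

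**Figure D2:**
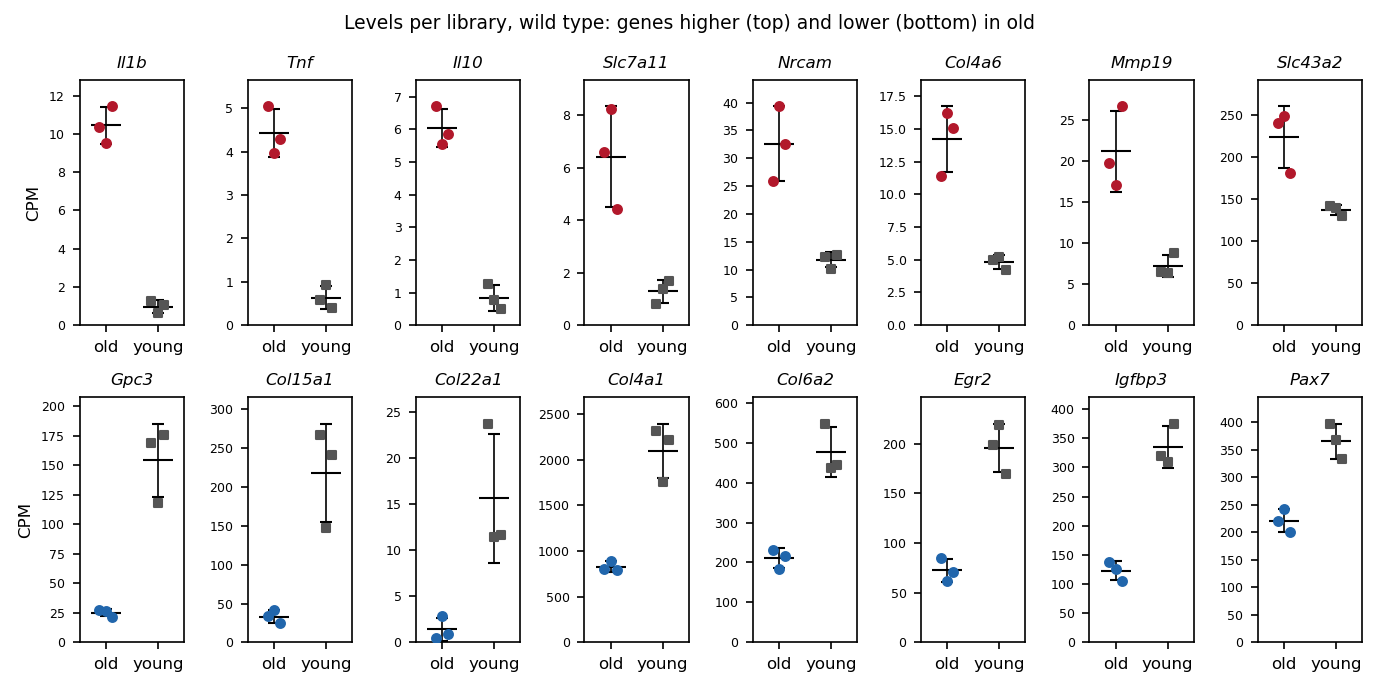
Level of 16 genes in each library, in CPM on linear axes that start at 0, with old wild-type libraries left and young wild-type libraries right in every panel. Points are libraries, bars the mean and SD of 3; in each panel the old and young points are separate, with Il1b at 9.54 to 11.4 CPM in old and at most 1.26 CPM in young libraries.

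Genes that mark the satellite cell itself were on balance lower in old cells. Of 29 tested genes of satellite cell identity, 3 fell, none rose, and 24 had a negative fold change, with a median of -0.46 against 0.01 over all genes. Pax7, the transcription factor that defines these cells, had 221, 242 and 201 CPM in the old libraries, against 397, 367 and 333 CPM in the young libraries. The groups did not overlap, and the log2 fold change was -0.72 ± 0.14 (SE; adjusted p = 0.0271). Fgfr4, an FGF receptor of activated satellite cells, had 274, 256 and 299 CPM in old and 493, 458 and 463 CPM in young libraries, a log2 fold change of -0.77 ± 0.14 (adjusted p = 0.0264). Heyl, a Notch effector, had 296, 273 and 250 CPM in old and 502, 489 and 440 CPM in young libraries, -0.81 ± 0.12 on the log2 scale (adjusted p = 0.0094). For both genes each old library lay well under the lowest young library. In a bulk sample, fewer cells of a type and less RNA per cell cannot be told apart.

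The fit of the 6 wild-type libraries called 11 of the 29 lower, beside 4.31% of all genes, and none higher, and 9 lower without old library 2. The added genes include Calcr, the calcitonin receptor of resting satellite cells, with 12.1, 13.4 and 13.1 CPM in old and 29.0, 38.1 and 32.7 CPM in young libraries, and Myf5, with 180, 181 and 165 CPM in old and 270, 294 and 284 CPM in young libraries. Their adjusted p was 0.000324 and 0.00314 there, and 0.29 and 0.14 in the fit of 12 libraries. Other genes of the same list stood at like levels, among them Itga7 (log2 fold change 0.10, adjusted p = 0.811), Vcam1 (-0.06, adjusted p = 0.931) and Sdc4 (-0.03, adjusted p = 0.988). Calcr, Myf5 and these 3 genes were picked out after their values had been seen. The summed level of the list was 11227 to 11576 CPM in old and 12811 to 14149 CPM in young libraries, without overlap.

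In the signalling lists few genes passed, but in most lists many members lay lower. The FGF list was an exception: of 26 genes Fgfr4 alone passed, 12 were positive and 14 negative, with a median of -0.02. All old libraries lay below all young ones in 4 of the 26, beside 13.8% of all tested genes. Of 26 Notch pathway genes Heyl alone passed, with 20 of the 26 negative. The fit of the 6 added Hes1, a Notch target with 21.5, 14.9 and 22.5 CPM in old and 42.8, 41.4 and 36.9 CPM in young libraries, together with Hey1 and the receptor Notch1. Of 61 Wnt genes 1 fell, Vangl2, a planar polarity protein, with 13.8, 11.6 and 13.6 CPM in old and 22.1, 23.9 and 19.6 CPM in young libraries (log2 fold change -0.74 ± 0.16, adjusted p = 0.0452). Of 52 TGF-β and BMP genes 1 fell, Fstl1, a secreted follistatin-like protein, with 326, 278 and 285 CPM in old and 589, 445 and 514 CPM in young libraries (-0.80 ± 0.16, adjusted p = 0.0282). Among 40 JAK-STAT genes and again among 39 interferon genes, Stat2, a transcription factor of the type I interferon response, was the gene that passed. It had 40.1, 40.3 and 39.9 CPM in old and 83.4, 59.4 and 69.0 CPM in young libraries (-0.82 ± 0.15, adjusted p = 0.027). Among 32 fusion and dystrophin complex genes, Cdon, a cell surface receptor of myoblasts, passed, with 244, 263 and 210 CPM in old and 509, 347 and 401 CPM in young libraries (-0.81 ± 0.18, adjusted p = 0.0468). Old and young values were separate for each of these genes. All old libraries lay below all young ones in 24 of the 61 Wnt genes (median -0.28), 16 of the 52 TGF-β and BMP genes (-0.23), 11 of the 40 JAK-STAT genes (-0.15) and 10 of the 32 fusion genes (-0.09), beside 13.8% of all tested genes. With the 6 wild-type libraries alone, 6, 7, 5 and 4 genes of these lists were called lower and none higher, and 4, 4, 3 and 2 lower without old library 2. Over all genes the fit of the 6 called 4.31% lower.

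The matrix made up the broadest fall. Of 195 tested genes of basement membrane, collagens, collagen processing, elastic fibres and matricellular proteins, proteoglycans and matrix proteases, 22 fell and 2 rose. Their median log2 fold change was -0.48, 157 were negative, and in 94 every old library lay below every young library. The share of all tested genes with that pattern was 13.8%, and the share that passed as lower was 0.805%. The fit of the 6 called 59 of 193 lower and 6 higher, beside 4.31% and 2.46% of all genes. Without old library 2 it called 44 lower and 6 higher. Among the collagen chains alone, 10 of 44 fell and 1 rose, with a median of -0.63.

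In the basement membrane list 6 of 31 genes fell and 1 rose. Col4a1, which with Col4a2 forms the main collagen of that sheet, had 806, 893 and 788 CPM in old and 2318, 1755 and 2213 CPM in young libraries, a log2 fold change of -1.34 ± 0.21 (adjusted p = 0.0112). Col4a2 had 568, 607 and 513 CPM in old and 1562, 1079.6 and 1398 CPM in young libraries (-1.26 ± 0.16, adjusted p = 0.00422). Both chains thus stood in every old library below the lowest young library. Col4a6, a minor chain of the same collagen family, rose, with 11.4, 16.2 and 15.1 CPM in old and 4.997, 5.25 and 4.25 CPM in young libraries (1.56 ± 0.27, adjusted p = 0.0182). The remaining falls were the laminin chain Lamb1 (361 ± 22.6 CPM in old and 709 ± 132 CPM in young, SD, n = 3 each), the laminin and collagen linker Nid2 (99.3 ± 4.09 and 152 ± 14.4 CPM) and the collagen-binding Sparc (1940.1 ± 156 and 3092 ± 80.0 CPM). Col15a1, a collagen that ties the basement membrane to the fibrils around it, is the sixth. It had 33.9, 41.1 and 24.6 CPM in old and 267, 147 and 241 CPM in young libraries (-2.72 ± 0.31, adjusted p = 0.00422), with the highest old value, 41.1 CPM, far under the lowest young value, 147 CPM.

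Of 35 other collagens 7 fell and none rose. Col1a1 and Col3a1, the main fibrillar collagens, had 418 ± 84.3 and 2487 ± 168 CPM in old and 1371 ± 344 and 4163 ± 267 CPM in young cells, with log2 fold changes of -1.71 ± 0.32 (adjusted p = 0.0284) and -0.74 ± 0.15 (adjusted p = 0.0313). Col6a1 and Col6a2, chains of the microfibrillar collagen VI around satellite cells, had 599 ± 41.3 and 211 ± 24.4 CPM in old and 1055 ± 115 and 476 ± 61.8 CPM in young cells (-0.82 ± 0.14 and -1.18 ± 0.14, adjusted p = 0.0184 and 0.00262). Col22a1, a collagen of the muscle and tendon junction, was nearly absent from old cells, with 0.492, 2.88 and 0.885 CPM, against 23.8, 11.4 and 11.7 CPM in young libraries (-3.58 ± 0.62, adjusted p = 0.0271). Col16a1 had 54.3 ± 1.62 CPM in old and 101 ± 16.1 CPM in young cells. The collagen gene Emid2 was even within each age, with 67.8, 66.2 and 66.4 CPM in old and 145, 139 and 141 CPM in young libraries.

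The proteoglycan Gpc3, a glypican that holds growth factors at the cell surface, had the smallest p of all tested genes. It had 27.3, 26.2 and 21.7 CPM in old and 169, 118 and 175 CPM in young libraries, a log2 fold change of -2.62 ± 0.23 (adjusted p = 0.000391), and was the 1 of 26 proteoglycans that passed. Of 38 elastic fibre and matricellular genes Eln and Mfap4 fell. Eln, which encodes elastin, had 8.31, 7.95 and 12.4 CPM in old and 46.2, 32.9 and 29.1 CPM in young libraries (-1.92 ± 0.37, adjusted p = 0.0313), and the microfibril protein Mfap4 had 48.2 ± 14.7 CPM in old and 119 ± 23.1 CPM in young cells. Of 27 collagen processing genes, the cross-linker Loxl2 and the procollagen peptidase Adamts2 fell, with 58.0 ± 10.9 and 35.0 ± 3.47 CPM in old and 118 ± 23.5 and 71.8 ± 16.4 CPM in young cells. Among 38 matrix proteases 4 fell: the gelatinase Mmp2 (64.4 ± 7.66 CPM in old, 148 ± 21.8 CPM in young) and the ADAMTS proteases Adamts4, Adamts5 and Adamts15, with log2 fold changes of -0.72 to -0.99. Mmp19, another metalloprotease, rose, with 19.7, 17.1 and 26.6 CPM in old and 6.50, 6.33 and 8.74 CPM in young libraries (1.55 ± 0.31, adjusted p = 0.0315).

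Satellite cells and fibroblasts share many matrix genes. Of 23 tested fibroblast markers 16 were negative and 7 positive. The fit of the 6 called 9 of 21 lower and 1, Il33, higher, beside 4.31% and 2.46% of all genes. The summed level of 25 fibroblast genes was 6138 to 7283 CPM in old and 10704 to 12833 CPM in young libraries. That sum holds Col1a1 and Col3a1, which are also counted among the collagens above. Of the 23 tested, 4 fell, the matrix genes Col1a1 and Col3a1 and the surface proteins Cd248 (4.86, 6.36 and 6.06 CPM in old, 31.2, 31.5 and 14.4 CPM in young libraries) and Thy1 (16.6 ± 3.12 and 37.8 ± 8.66 CPM). Pdgfra, the receptor that defines muscle fibroblasts, was sparse, with 4.80, 8.25 and 2.18 CPM in old and 4.46, 5.09 and 3.61 CPM in young libraries, and its groups overlapped. The part of fibroblasts in the fall of the matrix genes was not tested.

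Growth-control genes outside the matrix fell as well. Of 20 genes of the IGF axis 3 fell and none rose. Igf1, the growth factor of the axis, had 23.6, 20.2 and 14.2 CPM in old and 75.9, 37.2 and 45.6 CPM in young libraries, and its log2 fold change was -1.46 ± 0.29 (adjusted p = 0.0358). Igfbp3, which binds IGFs outside the cell, had 138, 125 and 106 CPM in old and 319, 309 and 375 CPM in young libraries (-1.44 ± 0.19, adjusted p = 0.00422). Stc1, a stanniocalcin that inhibits proteases of IGF-binding proteins, had 3.57, 2.68 and 2.86 CPM in old and 22.3, 12.04 and 17.5 CPM in young libraries (-2.51 ± 0.30, adjusted p = 0.00262). In each of them the old libraries lay together at the bottom.

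Among 25 imprinted genes, which are read from 1 parental copy, 2 fell and 21 were negative, with a median of -0.52. Cdkn1c, the cell cycle inhibitor p57, had 768, 705 and 781 CPM in old and 1311, 1464 and 1483 CPM in young libraries (-0.92 ± 0.14, adjusted p = 0.00967). Ndn, encoding necdin, a growth suppressor, had 4.55, 4.87 and 4.90 CPM in old and 14.8, 14.2 and 15.7 CPM in young libraries (-1.64 ± 0.22, adjusted p = 0.00434). The libraries of each age were close together for Ndn, and the ages far apart. The fit of the 6 called 9 of the 25 lower, beside 4.31% of all genes, and none higher. Among them was Plagl1, a zinc finger regulator of imprinted genes (adjusted p = 0.00104 there and 0.0889 in the fit of 12). It had 214, 257 and 212 CPM in old and 723, 441 and 512 CPM in young libraries. Plagl1 was picked out after its values had been seen.

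Immediate early genes, which are switched on within minutes of a stimulus, were lower in old cells in nearly every member. Of 36 tested, 35 were negative, with a median of -0.59. In 28 all old libraries lay below all young libraries, as in 13.8% of all tested genes. In the fit of 12 libraries 1 passed, Egr2, a zinc finger factor, with 85.1, 61.7 and 70.8 CPM in old and 199, 219 and 170 CPM in young libraries (log2 fold change -1.43 ± 0.19, adjusted p = 0.00544). The fit of the 6 called 25 lower, beside 4.31% of all genes, and none higher, but 13 lower without old library 2. Egr1 had 326, 280 and 261 CPM in old and 764, 773 and 542 CPM in young libraries, with an adjusted p of 0.157 in the fit of 12 and 0.000581 in the fit of the 6. Fos, a subunit of AP-1, had 395, 290 and 401 CPM in old and 668, 924 and 487 CPM in young libraries, with an adjusted p of 0.282 and 0.0212. Young library 2 held the highest value of both, and old library 2 the lowest Fos value. Egr1 and Fos were picked out after their values had been seen.

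**Figure D3:**
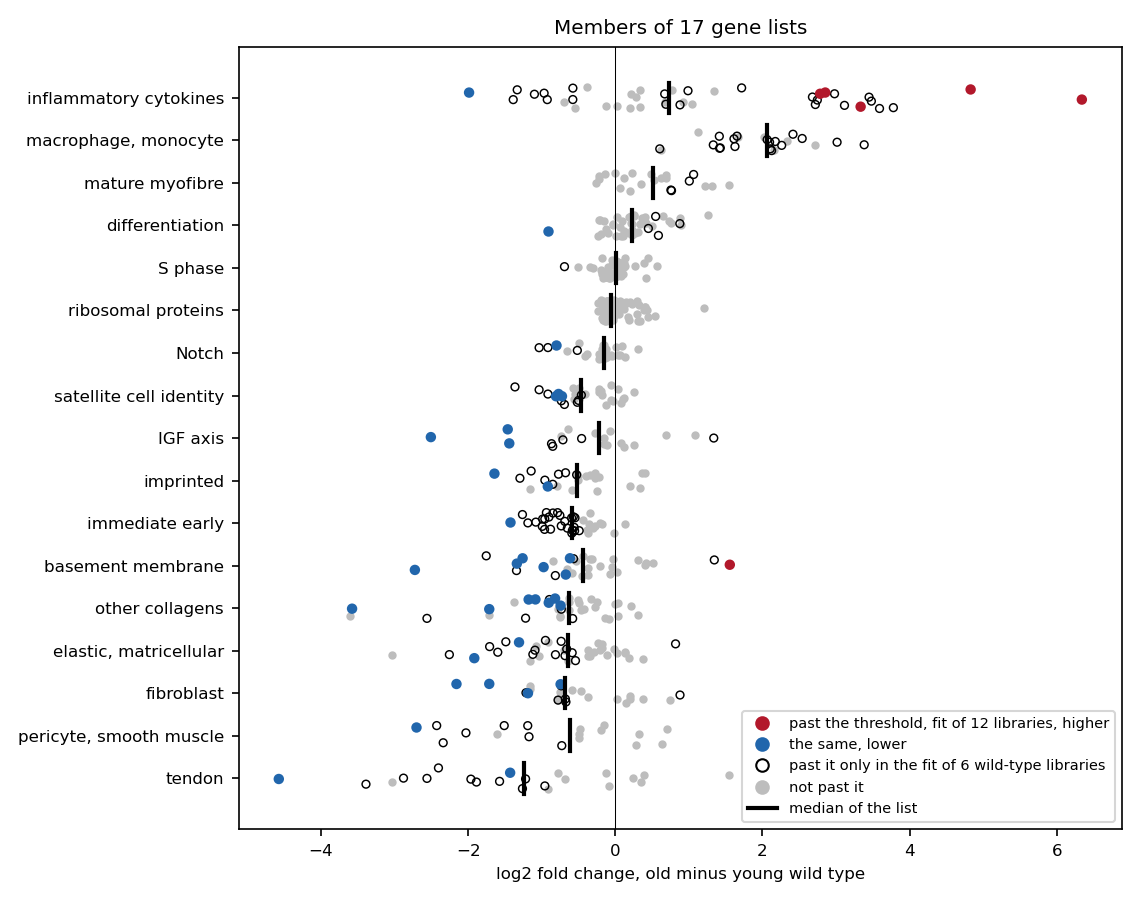
Log2 fold change, old minus young wild type (x axis), of the tested members of 17 gene lists (y axis). Filled colours passed the threshold in the fit of 12 libraries, open circles passed it only in the fit of the 6 wild-type libraries, grey points passed in neither, and vertical bars are list medians; the medians of the matrix, imprinted and immediate early lists lie left of 0 and that of the macrophage list at 2.06.

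Of the 47 lists, the inflammatory one held the most genes that rose. Of 42 tested cytokine and innate sensing genes 5 rose and 1 fell, with a median log2 fold change of 0.73. Sparse genes could pass the filter through their reads in the old libraries alone. The counts and the median of this list can therefore favour genes high there, also in the fit of the 6. The genes that rose are sparse, and the summed level of the list was not higher in old cells, with 1809, 1489 and 1646 CPM in old and 1941, 1796 and 1767 CPM in young libraries. Il1b, which encodes the cytokine interleukin 1 beta, had 10.3, 9.54 and 11.4 CPM in old and 1.26, 0.617 and 1.04 CPM in young libraries, a log2 fold change of 3.33 ± 0.47 (adjusted p = 0.00644). Tnf, another cytokine of acute inflammation, had 5.04, 3.98 and 4.29 CPM in old and 0.582, 0.926 and 0.401 CPM in young libraries (2.85 ± 0.45, adjusted p = 0.0112). The anti-inflammatory cytokine Il10 had 6.71, 5.57 and 5.86 CPM in old and 1.26, 0.771 and 0.481 CPM in young libraries (2.78 ± 0.52, adjusted p = 0.0253). For each cytokine the old libraries were close to each other and far above the young ones.

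Clec4e and Il1a were close to absent from young cells. Clec4e, a receptor for microbial and dead-cell ligands, had 122, 49 and 115 reads in old libraries and 3, 0 and 0 reads in young libraries. Per scaled library size, summed old reads were 92.0-fold the young reads, with an exact 95% counting interval of 31.2 to 449 (Clopper-Pearson, counting error only), and the adjusted p was 0.0175. Il1a, encoding interleukin 1 alpha, had 32, 41 and 22 reads in old and 1, 0 and 2 reads in young libraries, a ratio of 30.6 with an interval of 10.1 to 151 (adjusted p = 0.0313). The gene of the list that fell was Tril, an accessory protein of Toll-like receptors, with 6.09, 4.57 and 5.04 CPM in old and 27.4, 19.7 and 15.2 CPM in young libraries (-1.99 ± 0.23, adjusted p = 0.00262). The fit of the 6 called 19 of the 42 higher and 8 lower, beside 2.46% and 4.31% of all genes. Among the lower ones there was Il6, a cytokine that muscle itself secretes, with 38.9, 33.7 and 41.7 CPM in old and 126, 101 and 60.6 CPM in young libraries (adjusted p = 0.00613 there and 0.106 in the fit of 12); it was picked out after its values had been seen.

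To show the regulatory sequence of the cytokine genes that rose, these are the 250 bases before the RefSeq transcription start, 5′ to 3′ on the gene's strand in build GRCm38.p6, for the 4 of the 5 that have an entry, with the letters TATAAA in capitals. Il10 has no entry.
Clec4e, chr6:123289872-123290121, minus strand: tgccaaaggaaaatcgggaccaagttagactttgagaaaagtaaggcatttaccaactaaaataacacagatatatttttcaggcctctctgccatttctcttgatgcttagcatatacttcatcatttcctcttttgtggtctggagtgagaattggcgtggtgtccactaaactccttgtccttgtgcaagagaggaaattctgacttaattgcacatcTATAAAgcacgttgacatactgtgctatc
Il1a, chr2:129309973-129310222, minus strand: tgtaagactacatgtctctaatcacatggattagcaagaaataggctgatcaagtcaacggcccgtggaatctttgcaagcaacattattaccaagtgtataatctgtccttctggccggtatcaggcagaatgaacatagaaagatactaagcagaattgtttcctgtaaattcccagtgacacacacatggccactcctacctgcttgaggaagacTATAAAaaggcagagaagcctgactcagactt
Il1b, chr2:129371140-129371389, minus strand: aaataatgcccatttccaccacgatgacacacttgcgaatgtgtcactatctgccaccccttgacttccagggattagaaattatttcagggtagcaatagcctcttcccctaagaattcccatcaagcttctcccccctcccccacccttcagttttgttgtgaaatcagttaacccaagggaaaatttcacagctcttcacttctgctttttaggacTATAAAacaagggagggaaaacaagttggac
Tnf, chr17:35202008-35202257, minus strand: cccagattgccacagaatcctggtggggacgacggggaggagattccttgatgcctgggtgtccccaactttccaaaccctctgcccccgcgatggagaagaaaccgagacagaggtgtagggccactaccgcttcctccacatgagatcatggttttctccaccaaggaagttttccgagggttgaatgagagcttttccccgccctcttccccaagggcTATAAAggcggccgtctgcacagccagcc
Each holds TATAAA once, on the gene's own strand, with its first base 29, 32, 31 and 29 bases before the start in Clec4e, Il1a, Il1b and Tnf. On either strand, these letters occur in 897 of the 10724 tested genes that have an entry, a share of 8.36%. Among the 27 genes that rose and have an entry they occur in 5, the 4 shown included. For comparison, 3 genes that fell are shown, with CCGCCC in capitals, the reverse complement of the GC box letters GGGCGG. They were taken by smallest p among falls that have an entry and no annotated exon in the window.
Gpc3, chrX:52613975-52614224, minus strand: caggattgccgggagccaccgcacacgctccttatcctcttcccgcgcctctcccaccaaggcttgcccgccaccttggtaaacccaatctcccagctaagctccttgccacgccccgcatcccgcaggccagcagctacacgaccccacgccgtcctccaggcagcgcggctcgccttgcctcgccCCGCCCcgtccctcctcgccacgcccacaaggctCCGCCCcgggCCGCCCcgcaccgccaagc
Col15a1, chr4:47207762-47208011, plus strand: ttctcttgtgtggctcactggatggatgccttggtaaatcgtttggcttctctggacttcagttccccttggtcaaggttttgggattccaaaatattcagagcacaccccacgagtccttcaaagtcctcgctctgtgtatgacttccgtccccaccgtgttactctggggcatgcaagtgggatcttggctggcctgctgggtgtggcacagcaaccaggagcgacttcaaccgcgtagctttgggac
Igfbp3, chr11:7213924-7214173, minus strand: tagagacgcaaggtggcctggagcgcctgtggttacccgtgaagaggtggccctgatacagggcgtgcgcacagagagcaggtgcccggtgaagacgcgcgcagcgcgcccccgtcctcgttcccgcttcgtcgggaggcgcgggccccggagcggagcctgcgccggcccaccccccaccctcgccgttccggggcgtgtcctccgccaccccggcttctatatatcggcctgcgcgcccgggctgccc
Gpc3 holds CCGCCC at 3 places in this window, and Tnf, in which it is not marked, at 1. The windows of Col15a1 and Igfbp3 hold neither GGGCGG nor TATAAA on either strand, and that of Gpc3 no TATAAA. The GC box letters on either strand occur in 63.4% of the 10724 genes, and a kappaB motif, also searched on both strands, in 26.4%. Of the 7 windows shown, that of Gpc3 alone holds this kappaB motif, once. Entries were found for 27 of the 35 genes that rose and 73 of the 109 that fell, under 80% of each group, so shares of motifs between those groups are not compared. The authors' counts were made on mm9, and these windows are from another build. A match of letters is a description and not a binding site.

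Macrophage genes moved with the cytokines. All 25 tested genes of the macrophage and monocyte list were higher in old cells, with a median log2 fold change of 2.06. In 23 all old libraries lay above all young ones, as in 13.1% of all tested genes. The filter could admit a gene through its reads in the old libraries alone, so these counts can favour genes high there. None passed in the fit of 12 libraries. The fit of the 6 called 18 higher, beside 2.46% of all genes, and none lower, and 17 higher without old library 2. Lyz2, the lysozyme of myeloid cells, had 48.9, 45.0 and 47.9 CPM in old and 12.2, 13.0 and 8.10 CPM in young libraries. Its adjusted p was 0.246 in the fit of 12 libraries and 3.22e-05 in the fit of the 6. Lgals3 had 243, 222 and 244 CPM in old and 145, 170 and 151 CPM in young libraries, and Gpnmb 31.8, 30.9 and 37.4 CPM in old and 10.04, 15.7 and 11.9 CPM in young libraries. The summed level of 29 macrophage genes was 482 to 528 CPM in old and 206 to 263 CPM in young libraries. Ptprc, the CD45 of all white blood cells, stood at 2.88 to 3.75 CPM in old and 0.561 to 0.926 CPM in young libraries, and the macrophage surface gene Emr1 at 6.86 to 7.69 and 1.44 to 3.39 CPM. The part of macrophages in the rise of the cytokines was not tested.

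Further sparse genes that rose are known from myeloid cells and were picked out after their values had been seen. Msr1, a scavenger receptor, had 41, 34 and 26 reads in old and 1, 1 and 2 reads in young libraries. Ccr1, a chemokine receptor, had 39, 29 and 54 reads in old and 4, 0 and 3 reads in young libraries. Irg1, which makes itaconate in activated macrophages, had 73, 51 and 57 reads in old and 4, 1 and 1 reads in young libraries. Saa3, an acute-phase protein, had 64 reads in old and 2 in young libraries in all, a ratio of 30.9 with an interval of 8.21 to 260. Markers of other blood cells did not move this way. The summed level of 12 neutrophil genes was 3.61 to 9.84 CPM in old and 10.4 to 13.6 CPM in young libraries, and the T cell gene Cd3e had 3 reads in old library 2 and none in the other 5 libraries.

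Outside inflammation, the genes with the largest rises served varied functions. Slc7a11, the cystine transporter that feeds glutathione synthesis, had 6.58, 8.25 and 4.43 CPM in old and 0.825, 1.39 and 1.68 CPM in young libraries (log2 fold change 2.32 ± 0.41, adjusted p = 0.0197). It was the 1 of 39 antioxidant genes that passed. Nrcam, an adhesion protein of the immunoglobulin family, had 25.9, 39.4 and 32.6 CPM in old and 12.3, 10.2 and 12.7 CPM in young libraries (1.46 ± 0.21, adjusted p = 0.00644). Polr3g, a subunit of RNA polymerase III, had 19.4, 25.7 and 26.5 CPM in old and 6.36, 10.3 and 10.98 CPM in young libraries (1.39 ± 0.25, adjusted p = 0.0223). The hyaluronan receptor Layn (15.9 ± 2.94 CPM in old and 7.34 ± 0.642 CPM in young cells), the sodium and proton exchanger Slc9a2 (8.12 ± 1.24 and 3.24 ± 0.803 CPM), Prrg4 (11.1 ± 1.64 and 4.72 ± 0.237 CPM) and the vesicle fusion factor Napb (18.01 ± 0.396 and 8.37 ± 1.10 CPM) rose likewise. The entry NM_010574, which the RefSeq table names Irx2, a homeobox factor, rose at a low level, with 2.81 ± 0.390 CPM in old and 0.719 ± 0.329 CPM in young cells. Of 318 Zfp zinc finger genes 224 were positive, with a median of 0.18, but 2 passed in each direction. Zfp52 and Zfp82 rose, with 15.99 ± 2.25 and 11.8 ± 1.46 CPM in old and 5.52 ± 1.31 and 5.25 ± 0.419 CPM in young cells, and Zfp521 and Zfp536 fell.

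The largest falls not yet named were of genes of mixed function. Fibin, a secreted protein, had 14.3, 10.04 and 7.97 CPM in old and 54.5, 47.7 and 47.5 CPM in young libraries (log2 fold change -2.21 ± 0.26, adjusted p = 0.00262). Ctnna2, an alpha-catenin that links cadherins to actin, had 1.58 ± 0.545 CPM in old and 7.46 ± 1.51 CPM in young cells. C530008M17Rik had 2.60 ± 0.272 CPM in old and 9.73 ± 3.18 CPM in young cells, the transporter gene Mfsd7c 6.09 ± 2.19 and 22.3 ± 1.61 CPM, and the chemerin receptor Cmklr1 2.71 ± 1.14 and 8.54 ± 2.06 CPM. Pfkfb3, a regulator of glycolysis, was the 1 of 27 glycolysis genes that passed, with 35.7, 36.9 and 28.9 CPM in old and 114, 64.5 and 66.1 CPM in young libraries (-1.27 ± 0.24, adjusted p = 0.0271). Sox9, a transcription factor of matrix-producing lineages, had 155, 143 and 152 CPM in old and 276, 262 and 252 CPM in young libraries (-0.81 ± 0.14, adjusted p = 0.0175). The old values of Sox9 lay close together and below the young ones, and the gene was picked out after its values had been seen.

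Genes of cells that could travel with satellite cells were also examined. Pericytes, the cells around capillaries, had Kcnj8, a potassium channel subunit, among the genes that fell, with 4.61, 4.77 and 1.97 CPM in old and 33.9, 25.5 and 14.4 CPM in young libraries (log2 fold change -2.71 ± 0.52, adjusted p = 0.0358). Rgs5, a defining pericyte gene, had 44.2, 52.1 and 45.2 CPM in old and 358, 214 and 143 CPM in young libraries, and Pdgfrb 45.7, 47.9 and 44.2 CPM in old and 181, 126 and 84.7 CPM in young libraries. Both lay apart by age, with an adjusted p of 0.0633 and 0.0818 in the fit of 12 and 0.00645 and 0.00371 in the fit of the 6. The sum over 18 pericyte and smooth muscle genes was 3215 to 3356 CPM in old and 4082 to 5025 CPM in young libraries. Of 22 tendon genes Egr2 and Ptx4 fell and 18 were negative, with a median of -1.24. Ptx4, a pentraxin, had 0.123, 0.298 and 0 CPM in old and 5.68, 2.16 and 1.60 CPM in young libraries (-4.57 ± 0.88, adjusted p = 0.0284). The sum over the tendon list was 700 to 859 CPM in old and 1278 to 1957 CPM in young libraries, while Scx, the defining factor of tendon cells, was 16.8 to 28.5 CPM in old and 24.5 to 25.7 CPM in young libraries. The part of these cells in the falls was not tested.

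**Figure D4:**
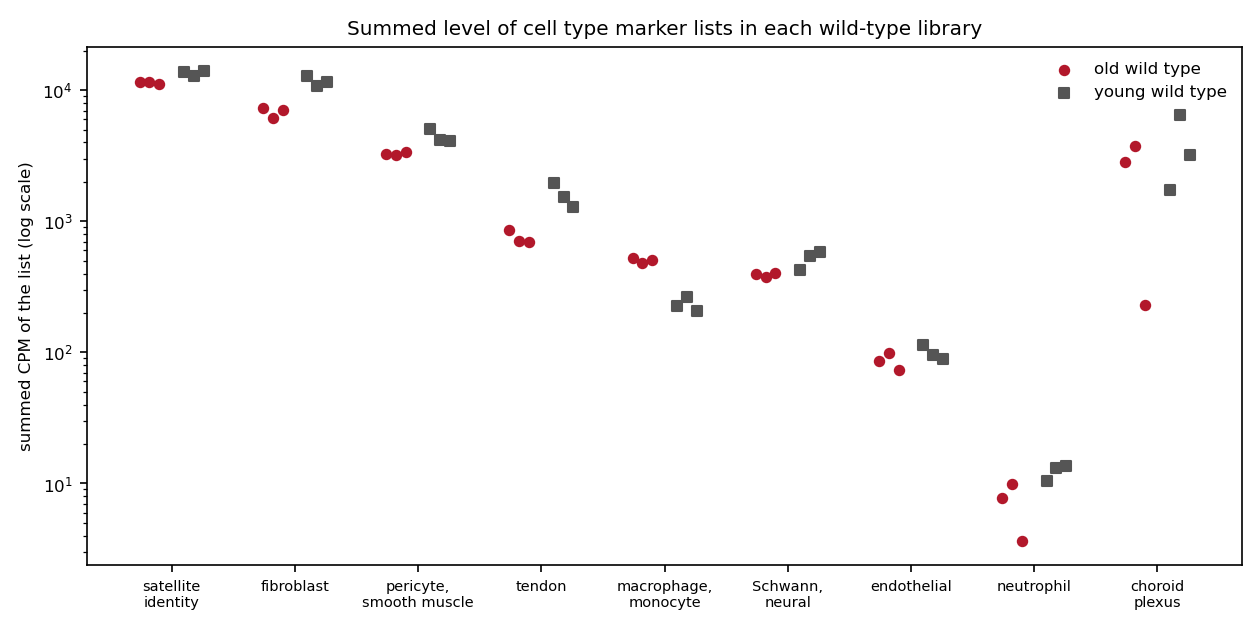
Summed CPM of 9 marker lists (x axis) in each wild-type library, on a log y axis, old libraries as red circles left and young libraries as grey squares right. The macrophage sums are 482 to 528 CPM in old and 206 to 263 CPM in young libraries, the fibroblast, pericyte and tendon sums are lower in old, and the choroid plexus sums spread most, from 232 CPM in an old library to 6462 CPM in a young library.

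Endothelial markers stayed sparse at both ages, with a sum of 73.3 to 99.3 CPM in old and 89.3 to 114 CPM in young libraries and overlapping groups. The Schwann cell list gave 378 to 401 CPM in old and 425 to 585 CPM in young libraries, with none of 16 tested genes past the threshold. Ttr, the transthyretin of the choroid plexus and liver, which is not known from muscle, had 1657, 2280 and 70.7 CPM in old and 1121, 4264 and 2131 CPM in young libraries. Old library 3 was low and young library 2 high, the groups overlapped, and none of 21 genes of the choroid plexus list passed.

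In many programmes no gene, or nearly none, passed in the fit of 12 libraries. Of 44 S phase genes and 41 mitosis genes none passed, with medians of 0.02 and 0.01, and Top2a had 302, 296 and 380 CPM in old and 334, 348 and 339 CPM in young libraries. Mki67, a marker of dividing cells, had 240, 264 and 308 CPM in old and 392, 268 and 216 CPM in young libraries. None of 74 respiratory chain genes, 79 ribosomal protein genes, 56 replication-dependent histone genes, 46 chromatin regulators and 35 heat shock genes passed, with list medians between -0.19 and 0.00. Of 34 senescence and p53 genes Cdkn1c, described above, was the gene that passed. Of 43 genes of muscle differentiation Cdkn1c alone passed, as it belongs to that list too, and 33 were positive with a median of 0.22. Of 22 genes of the mature fibre none passed and 18 were positive, with a median of 0.51. Fitting the 6 alone called 4 of the 22 fibre genes higher, Casq1, Eno3, Myh1 and Tcap, and 4 of the 43 differentiation genes, Kbtbd10, Myom1, Smyd1 and Tnnt3, beside 2.46% of all genes; without old library 2 it called 3 and 2. The fit of the 6 also called 1 S phase gene and 2 chromatin genes lower, beside 4.31% of all genes. It called 2 heat shock and stress genes higher and 1 lower, and 2 senescence genes in each direction. None of the mitosis, respiratory chain, ribosomal protein and histone genes passed in it. The most abundant fibre gene, Tpm1, had 969, 702 and 846 CPM in old and 623, 733 and 627 CPM in young libraries, and its groups overlapped. Of 9 Hoxa genes none passed.

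In Hoxa9 knock-out mice the same age comparison called 2 of 13540 genes (0.0148%), Eno3 and Klhl30, and none of the 144. By the same test 59 of the 144 had an unadjusted p under 0.05 there, in either direction. The like share over all tested genes was not tallied. The knock-out libraries varied more than the wild-type libraries, and old knock-out libraries 2 and 3 carry Y-linked reads. Of the 35 genes that rose with age in wild type, 19 were also positive in knock-out cells, with a knock-out median of 0.06. Of the 109 that fell, 86 were also negative, with a knock-out median of -0.32. Over all tested genes 48.9% were positive and 51.0% negative in knock-out cells. Since the genes were chosen on the wild-type difference, a smaller value in the knock-out is no finding by itself. The difference between the age effects, wild type minus knock-out, was tested for each gene, and 2 of 13540 passed (0.0148%), Il1b and Ndn, while 9.72% had an unadjusted p under 0.05.

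Il1b rose with age in wild type, while in knock-out cells it had 0.901, 0.535 and 0.872 CPM in old and 4.48, 1.80 and 0.745 CPM in young libraries. The difference of the age effects was 5.15 ± 0.71 on the log2 scale (adjusted p = 0.0339). Ndn fell with age in wild type, while in knock-out cells it had 15.02, 24.6 and 23.2 CPM in old and 9.53, 10.5 and 14.2 CPM in young libraries, and the difference was -2.54 ± 0.30 (adjusted p = 0.0131). All old knock-out libraries lay above all young ones for Ndn, but those for Il1b overlapped. Old knock-out libraries 2 and 3 had 1869 and 518 reads of the Y-linked Ddx3y, against at most 39 in the other 10 libraries, and old knock-out library 3 had 70.8% of its reads outside genes. Without old knock-out libraries 2 and 3 the differences were 4.86 and -2.03, with an adjusted p of 0.28 and 0.119, and no gene passed. Without old knock-out library 2 alone no gene passed either. Nor did any gene pass without any 1 of the 6 wild-type libraries, with adjusted p-values of 0.107 to 0.192 for Il1b and 0.0518 to 0.0938 for Ndn. Leaving out old knock-out library 1 or young knock-out library 3 called 33 or 116 genes.

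Other genes, when ranked by their p for this difference, missed the threshold. Zfp82 had an age effect of 1.18 in wild type and -1.05 in knock-out cells (adjusted p = 0.119 for the difference) and Slc7a11 2.32 and -0.92 (adjusted p = 0.235). By contrast, Gpc3 had 33.2, 28.6 and 53.2 CPM in old and 78.3, 95.6 and 107 CPM in young knock-out libraries, a log2 fold change of -1.31 ± 0.23 (adjusted p = 0.0652 in the knock-out). Col4a6 had 18.3, 15.5 and 17.1 CPM in old and 4.73, 5.65 and 10.9 CPM in young knock-out libraries, 1.32 ± 0.28 on the log2 scale (adjusted p = 0.14), with a difference from wild type of 0.24 ± 0.38. Pax7 had 231, 169 and 204 CPM in old and 238, 214 and 243 CPM in young knock-out libraries, and its difference from wild type, -0.52 ± 0.20, had an adjusted p of 0.429.

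**Figure D5:**
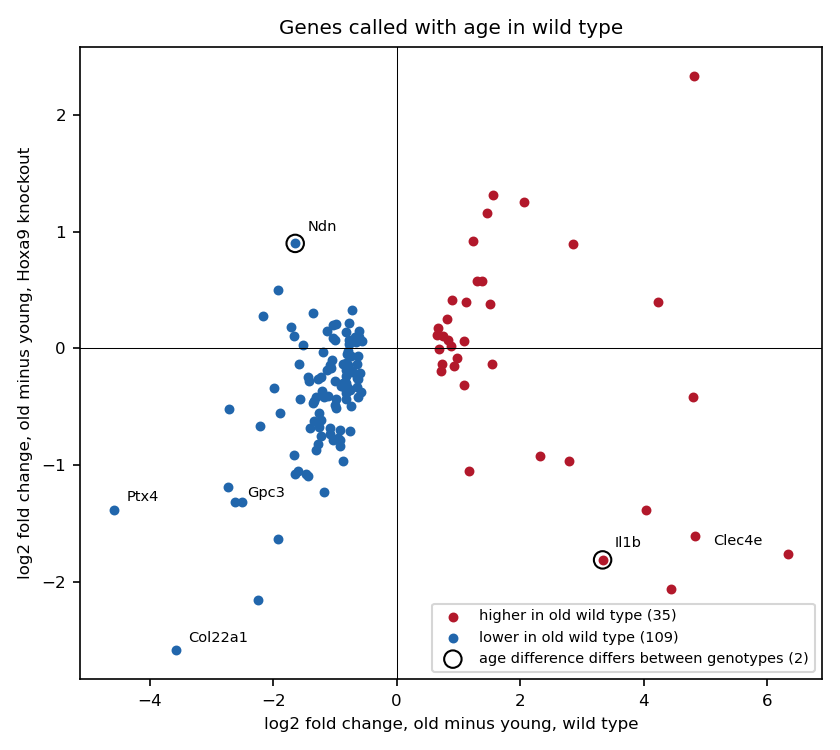
Each point is 1 of the 144 genes that passed in wild type, placed by its fitted log2 fold change, old minus young, in wild type (x axis) and in Hoxa9 knock-out cells (y axis), red for the 35 higher and blue for the 109 lower in old wild type. Circled are Il1b and Ndn, whose age effects differed between the genotypes; most blue points lie below the horizontal line (86 of 109), while red points lie on both sides of it (19 of 35 above).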

How the data were processed

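RNA-seq libraries were made with a stranded total RNA kit after ribosomal RNA depletion, per the labels' protocols. The deposited files hold the authors' raw counts, whole numbers of reads for every gene symbol. TopHat, HTSeq, DESeq2 and the mm9 build are named in the submitters' processing notes, without versions, and the sources used here do not say whether counting used strand. Counts of overlapping, antisense or near-identical genes are therefore uncertain. Rows without a gene name entered neither library sizes nor tests. Reads outside genes made up 35.2% to 57.1% and ambiguous reads 0.886% to 1.34% in the wild-type libraries.

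Genes were filtered with filterByExpr, which left 13540 of 22310 symbols. Counts were scaled by TMM and tested with edgeR 4.0.16 in R 4.3.3 (robust quasi-likelihood fit, 1 mean for each of the 4 groups of all 12 libraries), with Benjamini-Hochberg adjustment over all tested genes and a threshold of 0.05. The test was run beforehand on simulated counts. CPM values use TMM library sizes, and SD is over 3 libraries. The depth was 6125999 to 20337015 gene reads per wild-type library, and 3 reads, the limit that a count of 0 allows, correspond to 0.146 to 0.463 CPM.

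Alternatives were DESeq2 1.42.0, limma 3.58.1 (voom), other scalings and filters, a fit of the 6 wild-type libraries, a replicate block, and each library left out. GC offsets, combinations with the fit of the 6, and leaving out 2 knock-out libraries with Y-linked reads were added after seeing the data. Named were Hoxa9, Pax7, the 15 largest rises and 15 largest falls among called genes with a mean log2 CPM above 1 and no overlap, called members of 47 gene lists, abundant members of lists without calls, and called genes with the smallest p for the genotype difference. Members and lists were chosen with earlier results of these data known.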

Additional observations from a re-analysis of the deposited data

Results flagged for a closer look

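The age effect on Il1b differed between the genotypes by 5.15 on the log2 scale, wild type minus knock-out, in edgeR's interaction test (adjusted p = 0.0339). That on Ndn differed by -2.54 (adjusted p = 0.0131). Both calls were lost when any 1 wild-type library, or old knock-out library 2, was left out, with differences of 4.84 to 5.38 for Il1b and -2.39 to -2.58 for Ndn. Without old knock-out libraries 2 and 3, which carry Y-linked reads, the differences were 4.86 and -2.03 and the calls were lost too. The part of sex in these differences was not tested.

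Reads outside genes, which enter no comparison, made up 39.2%, 57.1% and 40.8% of uniquely aligned reads in old wild-type libraries 1, 2 and 3, each above every young wild-type library (35.6%, 38.3% and 35.2%). An exact two-sided permutation test gave p = 0.1, the smallest that 3 against 3 libraries can give.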

How the results depend on the processing

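Each of the 144 called genes kept its direction in every alternative in which it was tested and directions were tallied. The genes were chosen on that difference in these same libraries, so a kept direction was nearly fixed in advance and is no independent support. Directions were not tallied for the fits of the 6 with a library left out. The direction of uncalled genes near 0, such as Mki67, is not settled by these data. The number of genes called moved more. DESeq2 called 462 genes, 163 higher and 299 lower, and limma-voom 350, 138 higher and 212 lower. Library-size scaling gave 83 genes, 53 of them lower, and no filter on low counts gave 164 lower. The 6 wild-type libraries alone gave 913, 332 higher and 581 lower; with GC offsets 848, 326 and 522, and with the replicate block 532, 185 and 347. With 1 library left out, the fit of 12 gave 6 to 458 genes, 0 to 164 higher and 6 to 294 lower, and the fit of the 6 gave 462 to 846. Without old wild-type library 2 and old knock-out library 3 together it gave 2 genes, 0 higher and 2 lower.

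For the genotype difference, DESeq2 called 58 genes, limma-voom 1, library-size scaling 4, no filter 6 and the fit without robust estimation 1. With 1 library left out, 0 to 116 were called. With both doubted libraries, or both old knock-out libraries with Y-linked reads, left out, edgeR called 0, against 1316 genes with an unadjusted p under 0.05 in the fit of 12. The causes of these shifts were not tested.

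Whether replicate numbers pair the samples is not settled. Deviations of same-numbered old and young libraries correlated at -0.217, 0.0165 and 0.121, and those of different-numbered libraries at -0.166 to 0.196. With 3 libraries per age, whose deviations cancel within the age, such correlations cannot decide it. The replicate block called 79 genes, 18 higher and 61 lower. Depth limits the sparse genes most, since 3 reads are 0.463 CPM in young library 2.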
